A study of Mus musculus with 6 samples.

Results

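The imprinted genes are those that mammalian cells express mainly from the copy inherited from one parent. The set described here holds 40 genes chosen by name, of which 39 were found in the GENCODE annotation of mm9, 34 of them coding and 5 noncoding, and they were arranged in 17 imprinted domains. An ATAC-seq peak was assigned to a gene when it overlapped the gene body or lay within 20 kb of it. By this rule the imprinted genes took 48 of the 22753 peaks in the WT list and 49 of the 23722 in the list of Spen KO clone 3.

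The study used ATAC-seq, in which the Tn5 transposase inserts adapters into open chromatin, to ask how loss of Spen, an RNA-binding repressor needed for gene silencing by Xist, changes chromatin accessibility. All lines were haploid mouse embryonic stem cells (mESCs) of mixed genomic background with a doxycycline-inducible Xist on the X chromosome, grown in serum and LIF. The 6 samples were WT cells and Spen KO clones 2 and 3, each kept without doxycycline or given 2 ug/ml of it for 48 hr. A pair of peak lists was analysed here, 1 for WT and 1 for Spen KO clone 3, and clone 2 was not analysed here. The lists carry the name of the line but not whether Xist was induced, and Spen KO clone 3 is 1 clone. Each list was made from 2 technical replicates. With 1 list per line there is no replicate of the genotype, no test was made, and a difference between the lists cannot be told apart from a difference between these cell cultures. The sources used here do not say which parent the single genome of these cells came from.

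In each imprinted domain a short CpG-rich stretch, the imprinting control region, carries DNA methylation from either the egg or the sperm, and the unmethylated copy is usually the one with open chromatin. The factor Zfp57 binds the sequence TGCCGC when it is methylated and keeps the methylation in place in mESCs, and CTCF binds the unmethylated control region upstream of H19. Haploid cells carry 1 copy of each control region, so a peak there cannot be averaged over 2 parental copies.

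Sequences of 8 places are shown because the results turn on them, and capitals mark TGCCGC (the Zfp57 motif) or AAGATGGC (the core of the motif of YY1, a zinc finger factor), each on either strand. All are from mm9, 5′ to 3′, and each peak is represented by the stretch outside annotated exons that held the most CpG. The first 4 lie at start sites inside a host gene or close to one, where a peak was found in both lists (Mcts2) or in the clone 3 list only (Nnat, Inpp5f, Grb10). The next 2 are the strong start peak of Zim1 and the strongest clone 3-only peak in intergenic DNA. The last 2 are the 250 bases before a start without a peak within 1 kb in either list, with starts that RefSeq gives and that were placed in mm9 by sequence.
Mcts2 start in an H13 intron, chr2:152512579-152512878, plus strand: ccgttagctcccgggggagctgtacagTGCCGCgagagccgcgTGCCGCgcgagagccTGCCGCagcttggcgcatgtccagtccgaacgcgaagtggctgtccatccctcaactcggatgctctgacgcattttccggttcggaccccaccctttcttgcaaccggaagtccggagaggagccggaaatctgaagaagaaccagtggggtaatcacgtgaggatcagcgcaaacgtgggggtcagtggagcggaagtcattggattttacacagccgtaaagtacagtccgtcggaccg
Nnat intron, chr2:157387112-157387251, plus strand: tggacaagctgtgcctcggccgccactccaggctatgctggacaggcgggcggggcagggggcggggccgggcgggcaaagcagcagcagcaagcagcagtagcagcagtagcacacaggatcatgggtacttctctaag
Inpp5f internal start, chr7:135831484-135831783, plus strand: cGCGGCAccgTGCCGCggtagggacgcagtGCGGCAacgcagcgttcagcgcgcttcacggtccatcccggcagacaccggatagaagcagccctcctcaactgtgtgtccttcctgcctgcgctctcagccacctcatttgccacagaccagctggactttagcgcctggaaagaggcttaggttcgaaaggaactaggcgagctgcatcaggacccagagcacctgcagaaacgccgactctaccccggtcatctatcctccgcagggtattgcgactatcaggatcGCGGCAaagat
Grb10 downstream of a start, chr11:11925651-11925840, plus strand: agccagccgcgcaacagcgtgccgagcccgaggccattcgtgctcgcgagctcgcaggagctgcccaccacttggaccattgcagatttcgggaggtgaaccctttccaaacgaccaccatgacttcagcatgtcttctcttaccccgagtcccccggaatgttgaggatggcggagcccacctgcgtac
Zim1 start, chr7:6649162-6649461, plus strand: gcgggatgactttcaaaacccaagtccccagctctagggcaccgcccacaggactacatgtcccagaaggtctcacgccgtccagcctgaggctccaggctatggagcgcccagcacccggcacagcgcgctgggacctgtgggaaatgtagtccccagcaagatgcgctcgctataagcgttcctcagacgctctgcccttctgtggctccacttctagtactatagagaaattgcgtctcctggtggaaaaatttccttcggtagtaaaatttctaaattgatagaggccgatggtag
Upstream of Ndn, chr7:69480120-69480419, plus strand: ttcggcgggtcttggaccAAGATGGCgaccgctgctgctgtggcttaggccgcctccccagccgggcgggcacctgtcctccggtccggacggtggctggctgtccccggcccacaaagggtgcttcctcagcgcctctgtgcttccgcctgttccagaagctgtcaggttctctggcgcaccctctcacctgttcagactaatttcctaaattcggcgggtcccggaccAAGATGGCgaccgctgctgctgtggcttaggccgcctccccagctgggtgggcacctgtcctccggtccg
Kcnq1ot1, chr7:150482453-150482702, minus strand: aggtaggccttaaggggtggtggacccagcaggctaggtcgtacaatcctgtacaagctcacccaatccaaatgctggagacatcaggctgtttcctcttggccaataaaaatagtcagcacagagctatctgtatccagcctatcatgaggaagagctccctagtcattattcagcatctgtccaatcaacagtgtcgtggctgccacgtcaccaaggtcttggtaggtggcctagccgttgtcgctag
Mest, chr6:30687800-30688049, plus strand: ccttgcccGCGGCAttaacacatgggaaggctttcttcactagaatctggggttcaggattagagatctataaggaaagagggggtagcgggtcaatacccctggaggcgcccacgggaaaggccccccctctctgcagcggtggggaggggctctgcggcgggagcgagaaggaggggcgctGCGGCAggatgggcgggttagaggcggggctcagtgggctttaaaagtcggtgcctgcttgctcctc

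The Mcts2 stretch held 29 CpG and 3 copies of TGCCGC, and the Inpp5f stretch held 25 CpG and 4 copies. The Zim1 stretch held 15 CpG and no copy, whereas the central 300 bp of the whole Zim1 peak held 23 CpG and 1 copy in both lists. In the Ndn stretch, 95.5% of the 88 bases that have a base 212 positions further on equalled it, and the stretch held 2 copies of AAGATGGC. The 250 bases before the Kcnq1ot1 start held 5 CpG and no TGCCGC, and those before the Mest start 14 CpG and 2 copies.

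The peaks were spread very unevenly over the domains. The Peg10 domain held 9 WT and 8 clone 3 peaks and the Grb10 domain 8 in each list, whereas the H19-Igf2 and Mest domains held none in either list. Of the 39 genes, 33 had a peak within 20 kb in at least 1 list (30 in WT and 26 in clone 3). The 6 without a peak in either list were the noncoding RNA H19, the growth factor gene Igf2, the ubiquitin protease gene Usp29, the splicing protein gene Snrpn, the cation transporter gene Slc22a3 and Mest. The window decided some of these: the nearest peak to the Snrpn gene body lay 22.6 kb away in both lists, and the one nearest to Cdkn1c in the clone 3 list lay 20.3 kb away. On the inner side, a WT peak 18.1 kb from H13 and a clone 3 peak 16.8 kb from Zim1 were just included. A peak was called shared when 1 bp or more of it was covered in the other list, and 33 peaks of each list were shared. In WT 15 of 48 peaks were found in that list only, which is 31.2% (95% Wilson interval 19.9 to 45.3), beside 26.0% of all autosomal WT peaks. In clone 3 it was 16 of 49, or 32.7% (21.2 to 46.6), beside 28.4%. With all peaks, both intervals contained the background share. At starts of any gene, 6 of 20 WT peaks (beside 20.7%) and 5 of 19 clone 3 peaks (beside 13.1%) were in 1 list only, and away from starts 9 of 28 (beside 30.3%) and 11 of 30 (beside 38.4%). With only peaks at or above the list median score the shares were 0 of 16 in WT (beside 6.32% of such autosomal peaks) and 2 of 17 in clone 3 (beside 9.27%). At an IDR (the authors' measure of disagreement between replicates) up to 0.01 they were 0 of 20 in WT (0 to 16.1%, beside 12.2%) and 9 of 30, or 30%, in clone 3 (16.7 to 47.9%, beside 12.8%). At this limit the clone 3 interval lay above the background share and the WT interval contained it. All intervals cover counting error only.

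**Figure D1:**
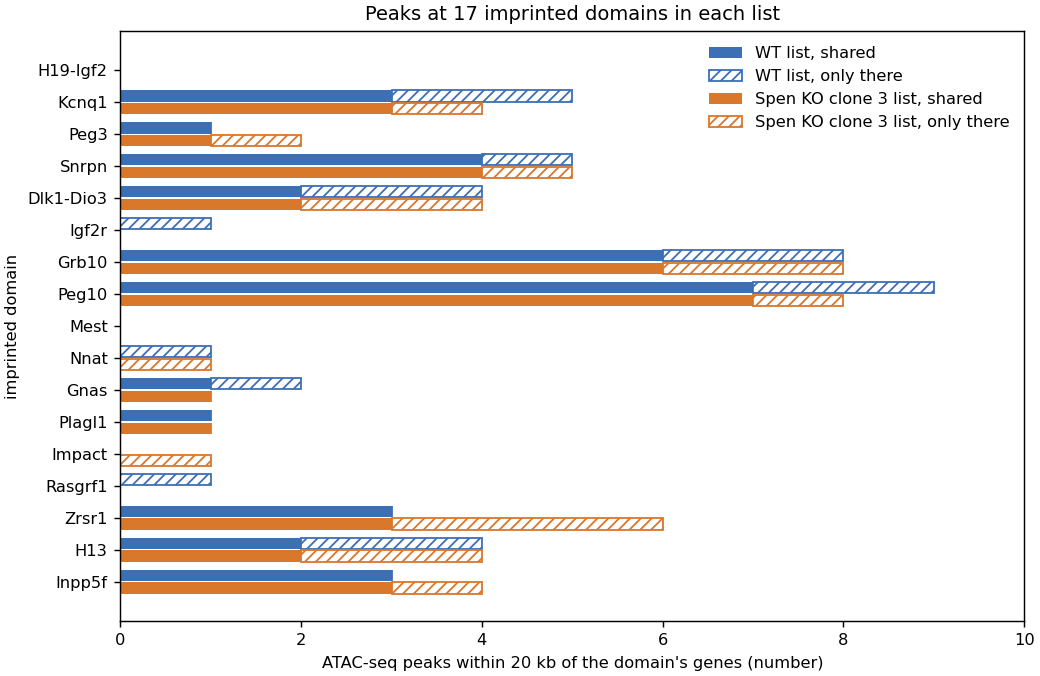
Number of ATAC-seq peaks (x axis) within 20 kb of the genes of each of the 17 imprinted domains (y axis), with filled bars for shared peaks and hatched bars for peaks in 1 list only. The Peg10 and Grb10 domains held most peaks, the H19-Igf2 and Mest domains held 0, and the Zrsr1 domain had 3 peaks in the clone 3 list only and 0 in the WT list only.

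The peaks at imprinted genes ranked low in both lists. Replicate values come without a named scale, so a peak was ranked by the mean of its 2 replicate values, as a percentile among the autosomal peaks of its list. The median percentile was 31.4 in WT (95% interval 15.7 to 46.1, n = 48) and 43.9 in clone 3 (33.1 to 45.6, n = 49), where the median over all autosomal peaks is 50 by construction. Only 16 of 48 WT peaks and 17 of 49 clone 3 peaks reached the median score of the list. Peaks in 1 list only ranked low among all autosomal peaks too. Their median percentile at the imprinted genes was 11.2 in WT (5.29 to 13.4, n = 15), beside 20.3 over all autosomal WT-only peaks, and 31.8 in clone 3 (16.8 to 43.9, n = 16), beside 22.7. The list median was reached by 0 of 15 in WT, beside 12.2% of all autosomal WT-only peaks, and by 2 of 16 in clone 3, beside 16.3%. Median lengths over all peaks at the imprinted genes were 517 bp in WT and 547 bp in clone 3. Over all autosomal peaks they were 544 and 523 bp. WT-only peaks at the imprinted genes had a median of 343 bp (316 to 501), beside 439 bp over all autosomal WT-only peaks. For clone 3-only peaks it was 480.5 bp (412 to 567), beside 430 bp. The 2 technical replicates of a list ranked a peak at imprinted genes apart by a median of 8.11 percentile points in WT and 12.9 in clone 3, beside 8.88 and 8.94 over all autosomal peaks.

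A start peak was one that overlapped the stretch from 1000 bp upstream to 100 bp downstream of an annotated transcript start. Of all peaks at the imprinted genes, 20 of 48 in WT (41.7%) and 19 of 49 in clone 3 (38.8%) lay at a start of some gene, beside 44.8% and 39.5%. Start peaks of their own were present at 14 of 39 imprinted genes in WT, which is 35.9% (22.7 to 51.6), beside 41.6% of autosomal genes of the same types. In clone 3 there were 11 of 39, or 28.2% (16.5 to 43.8), beside 37.8%. At 10 genes, or 25.6%, one was present in both lists, beside 33.8%. Ascl2, Cdkn1c, Dio3 and Rasgrf1 had one in WT only, H13 in clone 3 only, and 24 genes (61.5%) in neither, beside 54.4%. The contrast with other genes was larger among coding genes with a CpG-rich start, defined as at least 50% GC and a CpG ratio of at least 0.6 in 300 bp, a class of promoter that is open in most cells. Of 25 such imprinted genes, 12 had a start peak in WT (48%, 30.03 to 66.5), beside 71.3% of all such autosomal genes. In clone 3 there were 9 (36%, 20.2 to 55.5), beside 64.6%, and both intervals lay below the background. Both lists marked 8 of the 25, beside 58.7%, and neither list 12, beside 22.8%. By the parental copy that is usually expressed, a start peak was found in WT at 4 of 19 paternally expressed genes (8.51 to 43.3%). For maternally expressed genes it was 5 of 13 (17.7 to 64.5%). In clone 3 it was 2 of 19 (2.94 to 31.4%) and 3 of 13 (8.18 to 50.3%). Among the 7 genes whose imprint depends on tissue or transcript it was 5 in WT (35.9 to 91.8%) and 6 in clone 3 (48.7 to 97.4%). All WT intervals contained the 41.6% of autosomal genes of the same types. In clone 3, beside 37.8%, the paternal interval lay below and that of the 7 genes above. The groups are small and their difference was not tested. Over all 39 genes, 6 in WT (beside 27.0% of autosomal genes of the same types) and 4 in clone 3 (beside 23.0%) had a start peak when only peaks at or above the list median score were kept.

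A missing peak does not show that a promoter is closed. Of 8 genes that mark mESCs, a start peak was found at 3 in WT (Pou5f1, Sox2 and Zfp42) and at 4 in clone 3 (Pou5f1, Esrrb, Zfp42 and Klf4), beside 45.1% and 41.0% of autosomal coding genes, and Nanog, Tdgf1 and Dppa5a had none in either list. Of 11 markers of other cell types that were found, Gata4 and Thy1 had one in WT and Vim in clone 3. The read depth behind the lists is unknown.

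**Figure D2:**
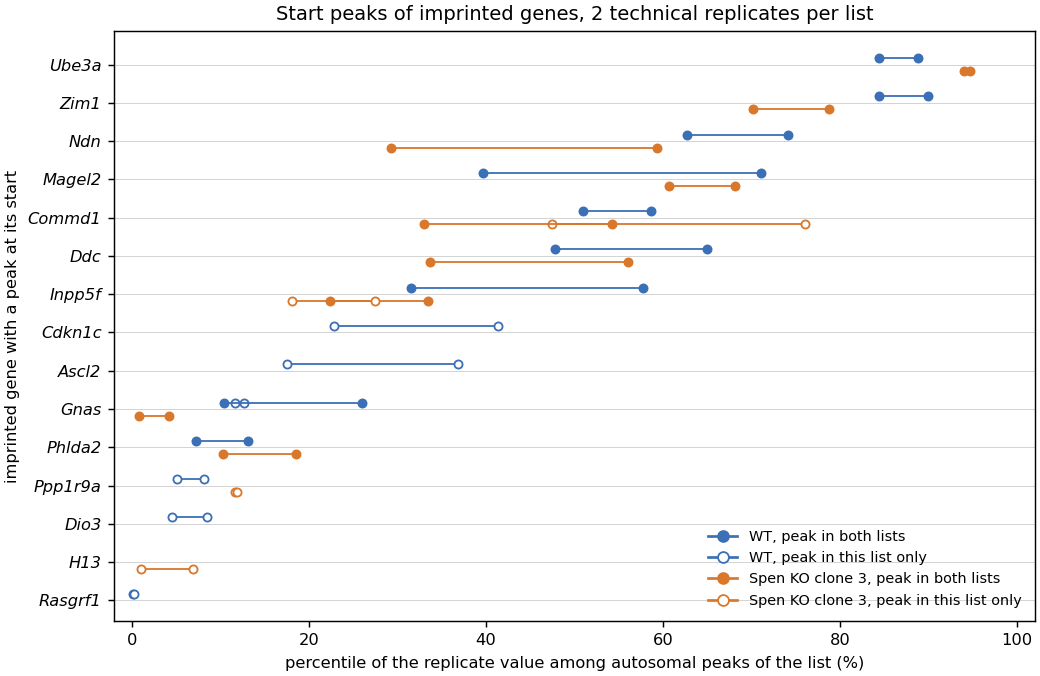
Percentile of each technical replicate's value among the autosomal peaks of its list (x axis, %) for the start peaks of the 15 imprinted genes that had any (y axis), with 1 line per peak joining the 2 replicates, filled points for shared peaks and open points for peaks in 1 list only. Ube3a and Zim1 ranked highest in both lists, and the peaks of Rasgrf1, Dio3, H13 and Ppp1r9a all lay below the 15th percentile.

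Among starts of the listed genes themselves, the strongest peaks belonged to Ube3a and Zim1. Ube3a encodes a ubiquitin ligase and is imprinted mainly in neurons, and its start peak ranked at percentiles 88.8 and 84.5 in the WT replicates and 94.0 and 94.8 in clone 3. Both clone 3 replicates were thus above both WT replicates, with a rise in score percentile of 7.30 points. Zim1, a zinc finger gene beside Peg3, ranked at 89.9 and 84.4 in WT and 78.7 and 70.1 in clone 3. Its replicates did not overlap either, in the other direction, and the score percentile fell by 12.5 points.

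The Snrpn domain carries paternally expressed genes of the MAGE family, Ndn and Magel2, and the intronless genes Mkrn3 and Peg12. The Ndn start peak (chr7:69492996-69493446, in its exon) ranked at 62.7 and 74.1 in WT and at 29.3 and 59.4 in clone 3, a fall of 24.9 points in which both replicates lay lower. Magel2 ranked at 71.1 and 39.6 in WT and 60.7 and 68.1 in clone 3, so its replicates overlapped. Mkrn3 had a WT-only peak in its exon, 367 bp downstream of the nearest start, at 27.2 and 34.2. Peg12 had a shared peak in its exon, at 52.6 and 18.0 in WT and 24.6 and 57.4 in clone 3, in which the replicates of each list differed more than the lists did. Clone 3 alone had a peak 12.5 kb upstream of Ndn (chr7:69479808-69480697), at 37.5 and 72.3, and it was 1 of the 2 clone 3-only peaks above the list median. The printed sequence of that peak is the one with the repeat of 212 positions. No peak lay within 20 kb of Snrpn itself.

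In the Kcnq1 domain, whose genes are silenced on the paternal copy by the noncoding RNA Kcnq1ot1, 3 genes had a start peak in WT and 1 in clone 3. Cdkn1c, an inhibitor of cyclin-dependent kinases, had a WT-only start peak (chr7:150646699-150647359) at 22.8 and 41.4 with 40 CpG in its central 300 bp. Ascl2, a transcription factor of the trophoblast, had a WT-only start peak at 17.5 and 36.9, and a clone 3-only peak of 818 bp in its intron, 1.04 kb downstream of a start, at 26.6 and 31.8. The lists thus marked neighbouring but separate places at Ascl2. Phlda2, a restraint on placental growth, had a weak shared start peak, at 13.1 and 7.22 in WT and 10.3 and 18.5 in clone 3. The strong peak of the domain was a shared one in an intron of Kcnq1, a potassium channel gene, 16.6 kb from a start, at 93.5 and 92.0 in WT and 95.4 and 79.3 in clone 3. Kcnq1ot1 was not in the annotation, and from its RefSeq start, placed at chr7:150482452 on the minus strand, the nearest peak was 141 kb away in both lists.

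The Dlk1-Dio3 domain pairs the paternally expressed Dlk1, a Notch-ligand-like protein, and Dio3, a thyroid hormone deiodinase, with the maternally expressed noncoding RNAs Meg3, Rian and Mirg. Meg3 had a shared peak in its exon about 0.5 kb downstream of a start, at 31.9 and 44.4 in WT and 32.3 and 49.6 in clone 3, so the lists overlapped. Between Dlk1 and Meg3, where the sperm-methylated control region of the domain lies, there was 1 WT-only peak (chr12:110768930-110769264), 9.95 kb from Meg3 and weak at 13.9 and 4.22. The only Dlk1 peak was in clone 3, 14.7 kb upstream of its start, at 19.1 and 4.28. Dio3 had a WT-only start peak at 8.50 and 4.51, and clone 3 had a peak beside Mirg at 16.8 and 21.0. A shared peak 8.72 kb upstream of Rian, in the exon of the retrotransposon-derived gene Rtl1 and at the starts of Mir136 and Mir432, ranked at 14.5 and 17.9 in WT and 45.6 and 29.96 in clone 3. It rose by 20.7 points, with both clone 3 replicates above both WT replicates.

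The Grb10 and Peg10 domains held more peaks than any other domain in both lists. Grb10, an adaptor that dampens insulin signalling, had a strong shared intron peak at 92.1 and 90.2 in WT and 91.4 and 96.5 in clone 3. Beside it lay Ddc, which encodes dopa decarboxylase, with a start peak at 65.0 and 47.8 in WT and 56.1 and 33.7 in clone 3. In the Peg10 domain, Peg10 itself, a retrotransposon-derived gene, had no start peak, and the nearest peak lay 8.19 kb away in WT and 61.9 kb away in clone 3. Sgce, which encodes a sarcoglycan and shares a promoter region with Peg10, had a shared intron peak at 80.4 and 48.1 in WT and 53.4 and 75.3 in clone 3. At the start of Ppp1r9a, a neurabin gene, each list had its own weak peak, at 8.14 and 5.10 in WT and 11.6 and 11.9 in clone 3, and the peaks did not overlap. About 10.1 kb upstream of it a shared peak ranked at 85.7 and 88.8 in WT and at 75.5 and 72.2 in clone 3, lower in both clone 3 replicates by 13.2 points. Asb4, an ankyrin repeat gene, showed the largest rise of any shared peak at the imprinted genes: the peak in its exon (chr6:5373524-5374058) ranked at 18.7 and 27.2 in WT and at 51.3 and 54.6 in clone 3, 32.8 points higher.

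Few peaks lay near the starts of 10 listed promoters that are methylated in the egg (Kcnq1ot1, Peg3, Snrpn, Airn, Peg10, Mest, Nnat, Plagl1, Impact and Zrsr1), and the list does not hold all such promoters. A peak edge lay within 1 kb of a start at 0 of 10 in WT and 1 of 10 in clone 3, beside 46.4% and 42.4% of all autosomal coding genes. Only 5 of the 10 were annotated as coding genes with a CpG-rich start (Peg10, Mest, Nnat, Plagl1 and Zrsr1), and of these 0 in WT and 1 in clone 3 had such a peak, beside 72.5% and 66.0% of autosomal coding genes with a CpG-rich start. Plagl1, a zinc finger gene, came nearest in WT, with a shared intron peak 5.03 kb from a start at 19.1 and 65.3 in WT and 28.3 and 66.3 in clone 3. By contrast, Mest, Snrpn and Peg3 had no peak within 20 kb of a start. The exception was Nnat, which encodes neuronatin and lies in an intron of Blcap: clone 3 alone had a peak (chr2:157386944-157387444) in an intron, 199 bp from a start, at 23.3 and 43.9 with 13 CpG. WT alone had a peak 12.4 kb beyond Nnat at 42.4 and 22.1. Of the genes beside sperm-methylated regions, H19 had its nearest peak 32.6 kb away in both lists. Rasgrf1, a Ras exchange factor, had only a WT-only peak at its start within 20 kb. It ranked at 0.161 and 0.263, the weakest of all peaks at imprinted genes. Peaks farther than 20 kb from Rasgrf1 were not assigned to it, so a control region beyond that distance was not examined.

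**Figure D3:**
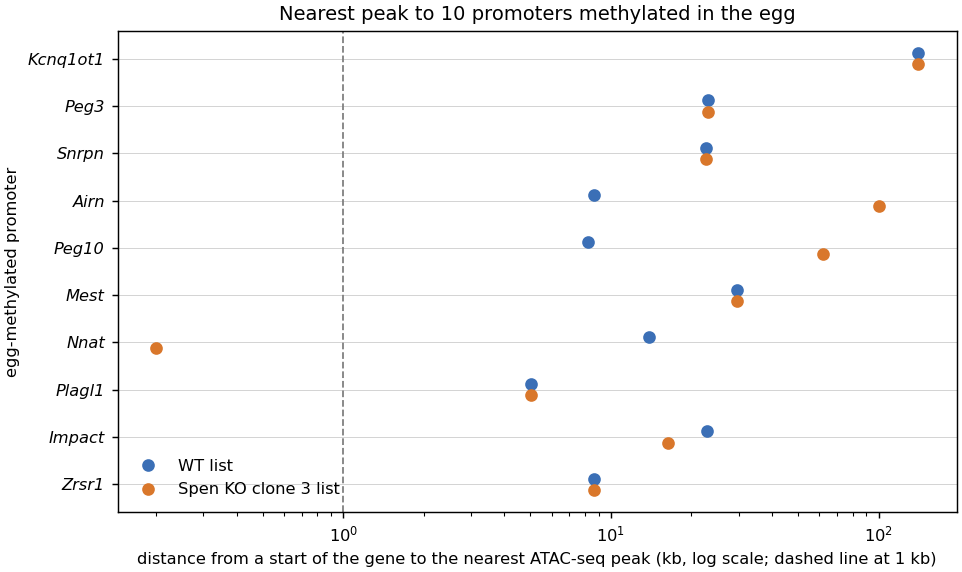
Distance from a start to the nearest edge of an ATAC-seq peak (x axis, kb on a log scale) for 10 promoters methylated in the egg (y axis), in the WT and the clone 3 list, with a dashed line at 1 kb. In the clone 3 list Nnat lay at 0.199 kb, and every other point in either list lay at 5.01 kb or more.

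A few CpG-rich starts that are also known as egg-methylated did have peaks, and these were picked out after their values were seen. Mcts2, a gene copied by retrotransposition into an intron of H13, a signal peptide peptidase gene, had a strong shared peak at its start (chr2:152512366-152512956). It ranked at 90.8 and 95.04 in WT and 72.2 and 86.7 in clone 3, lower in both clone 3 replicates by 12.2 points of the score percentile. An internal start of Inpp5f, a phosphoinositide phosphatase gene, had a clone 3-only peak (chr7:135831385-135832067) at 18.1 and 27.4, and the main Inpp5f start was marked in both lists, at 57.7 and 31.6 in WT and 22.4 and 33.5 in clone 3. The strongest Inpp5f peak away from starts, 9.24 kb beyond the gene in WT, overlapped between the lists, at 50.6 and 68.4 in WT and 58.3 and 66.4 in clone 3. At Grb10 a clone 3-only peak (chr11:11925649-11926123, in its exon) lay 204 bp downstream of a start with 27 CpG, at 66.2 and 19.5. Its replicates were 46.7 points apart, the widest gap among the clone 3 peaks at the imprinted genes. Nap1l5, another such promoter, had no start peak in either list. With Mcts2, the internal starts of Inpp5f and Grb10, Nap1l5 and Nespas (described next) added to the 10 listed promoters, a peak lay within 1 kb of a start at 2 of 15 in WT (Mcts2 and Nespas) and at 4 of 15 in clone 3 (Nnat, Mcts2, Inpp5f and Grb10). Of all autosomal coding genes, 46.4% in WT and 42.4% in clone 3 had a peak edge within 1 kb of a start. The added starts with a peak were picked after their values were seen, so no contrast between the lists is drawn from this tally. Sequences of the Mcts2, Nnat, Grb10 and internal Inpp5f peaks are printed above.

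The Gnas locus codes for the alpha subunit of a stimulatory G protein and has several alternative starts. A shared start peak ranked at 26.0 and 10.4 in WT and 4.22 and 0.826 in clone 3, so both clone 3 replicates were lower, by 14.0 points of the score percentile. WT alone had a peak over a start of Gnas and its antisense Nespas (chr2:174110397-174110880), at 12.7 and 11.7. In the Igf2r domain, named for the receptor that clears Igf2, the sole peak was a WT-only one in the overlapping introns of Airn and Igf2r, 246 bp long, at 5.31 and 5.99. A peak has no strand, so such a peak cannot be given to one gene of an overlapping pair.

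The Zrsr1 domain was the one with the most peaks in clone 3 alone. Zrsr1, a splicing factor gene, lies in an intron of Commd1, a regulator of copper transport, and had no start peak. Commd1 had a shared start peak at 58.7 and 51.0 in WT and 32.99 and 54.2 in clone 3. Clone 3 alone had a peak at an internal Commd1 start (chr11:22856827-22857312) at 47.4 and 76.1, with 2 CpG, which was the other clone 3-only peak above the list median. The other 2 lay at the start of Cct4, a chaperonin gene, at 61.6 and 24.8, and 4.09 kb beyond Commd1 at 38.4 and 44.0. H13 had a clone 3-only start peak at 0.991 and 6.91, and a shared peak in its exon, 15.7 kb from a start, at 22.7 and 51.1 in WT and 59.8 and 27.2 in clone 3. Impact, a regulator of translation, had a clone 3-only peak 16.3 kb upstream at 32.6 and 55.7, and in WT the nearest peak lay 22.8 kb away.

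Over the 33 shared peaks the rank changed little on balance. The rank shift, the clone 3 percentile minus that of WT, had a median of 1.97 points (95% interval -2.63 to 3.97), beside -0.0737 over 16053 shared autosomal peaks. From replicate 2 alone the median was 3.24 and from replicate 1 alone -2.77, so no direction is given to it. Both clone 3 replicates were lower than both WT replicates at 7 of 33 (21.2%), beside 22.9% of shared autosomal peaks, and higher at 6 of 33 (18.2%), beside 23.0%. The 14 peaks at a start had a median shift of -12.3 (-13.7 to 6.05), beside -2.73 over shared autosomal peaks at a start, and the 19 away from starts 2.17 (-2.26 to 5.69), beside 3.42. Among those with both replicates to one side, Ndn, Rian and Asb4 moved by at least 20 points. That was 1 of 33 lower (3.03%, 0.537 to 15.3), beside 9.46% of shared autosomal peaks, and 2 of 33 higher (6.06%, 1.68 to 19.6), beside 10.5%.

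**Figure D4:**
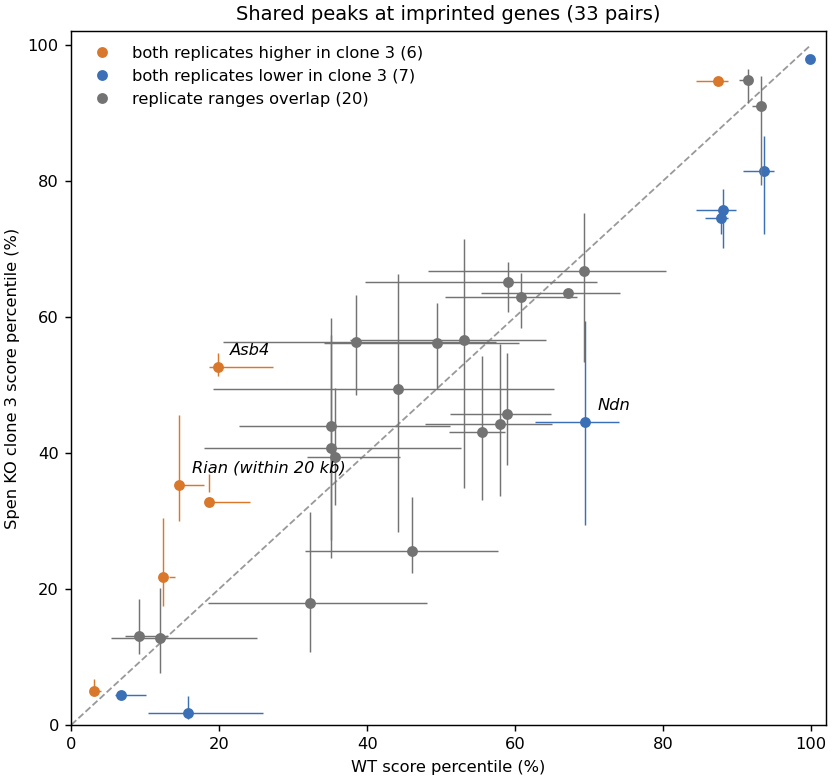
Score percentile in the WT list (x axis, %) and the Spen KO clone 3 list (y axis, %) of the 33 shared peaks at imprinted genes, with bars spanning the 2 technical replicates and a dashed line of equal rank. The replicate ranges overlapped for 20 peaks, 7 lay lower and 6 higher in clone 3 in both replicates, and the 3 named peaks moved by at least 20 points.

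In sequence, the central 300 bp of the peaks in the clone 3 list only held a median of 13.5 CpG (95% interval 6 to 19, n = 16), beside 6 over all autosomal clone 3-only peaks, so the interval reached the background. Of these 16 peaks 5 lay at a start of some gene, beside 1158 of 6383. In WT-only peaks it was 9 (3 to 23, n = 15), beside 8. In the shared peaks it was 8 in WT (4 to 15) and 9 in clone 3 (4 to 14), beside 13 over the shared autosomal peaks of each list, and both intervals contained the background. The motif TGCCGC, on either strand of the central 300 bp, was in 6 of 48 WT peaks (12.5%, 5.86 to 24.7), beside 15.6%, and in 12 of 49 clone 3 peaks (24.5%, 14.6 to 38.1), beside 13.5%. It was in 14.2% of 300 bp promoters of coding transcripts. Of the peaks in 1 list only, 0 of 15 in WT and 4 of 16 in clone 3 held it (Mirg, Nnat, the start of Cct4 and the internal start of Inpp5f), beside 14.6% and 8.19%. The shared peaks held it 6 times in WT (18.2%, beside 16.0%) and 8 times in clone 3 (24.2%, beside 15.6%), where the central 300 bp was set by each list's own midpoint. AAGATGGC was in 3 of 48 WT peaks, beside 5.24%, and 4 of 49 clone 3 peaks, beside 8.15%, and in 3.45% of promoters. Among WT-only peaks 1 of 15 held it, at Mkrn3, beside 4.02%. It was in 1 of 16 clone 3-only peaks, the one upstream of Ndn, beside 14.6% of all autosomal clone 3-only peaks.

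**Figure D5:**
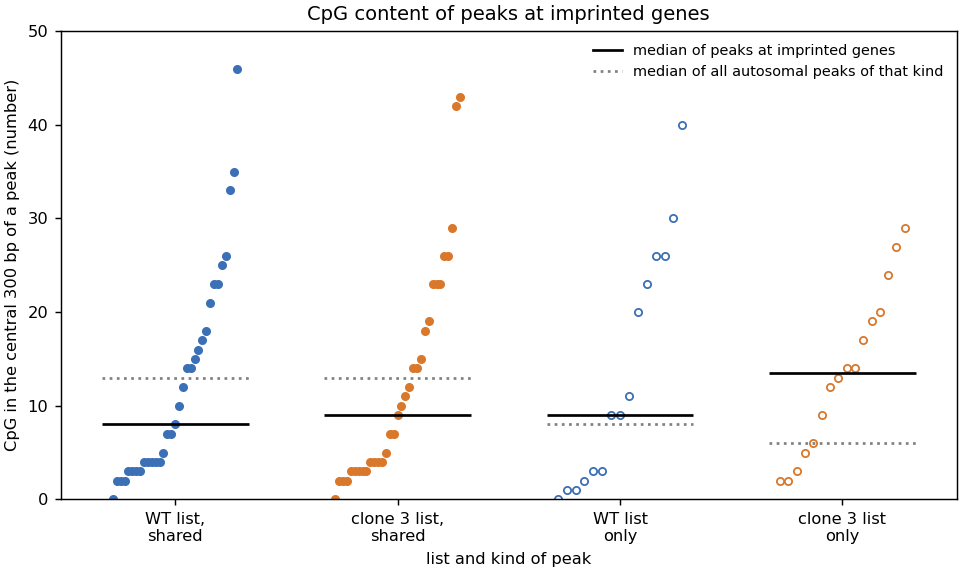
Number of CpG in the central 300 bp (y axis) of each peak at the imprinted genes, by list and by whether the peak was shared (x axis), with a black line at the median and a dotted line at the median of all autosomal peaks of that kind. Clone 3-only peaks had a median of 13.5 beside 6, with points from 2 to 29, and the spread within each kind was wide.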

How the data were processed

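Per the study's methods, the authors removed adapters with CutAdapt, aligned to mm9 with Bowtie2, retained uniquely mapping proper pairs without duplicates, ran MACS2 on 2 technical replicates per list and filtered by IDR, which reaches 0.05 in the deposited lists. Tool versions for these ATAC-seq steps are not given in the sources used here. Replicate values, whose scale is unnamed, only ranked peaks within a list on chromosomes 1 to 19. Genes and starts came from GENCODE on mm9. RefSeq promoters were placed in mm9 by exact match, which gave starts for 34 of 39 genes. Scripts in Python 3.11.15 (matplotlib 3.10.9, pandas 2.3.3, numpy 2.4.6, scipy 1.17.1) were tested on simulated data. Intervals are Wilson for shares and binomial for medians.

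Named peaks were start peaks of members, the strongest peak of a domain away from starts, peaks in 1 list only at or above the list median, shared peaks with both replicates to one side and a shift of at least 20 points, and peaks at control regions. Members, domains and lists were chosen with earlier results of these data known. Peaks named outside this rule, and the printed sequences, were chosen after their values were seen. The result for 1 peak that this rule names is not reported here.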

Additional observations from a re-analysis of the deposited data

How the results depend on the processing

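Of 36 alternatives run, 28 left a result in the same direction and within its limits. With only peaks at or above the list median score, the share found in 1 list only fell to 11.8% in clone 3 (2 of 17, beside 9.27% of autosomal peaks) and 0% in WT (0 of 16, beside 6.32%). At an IDR up to 0.01 the WT share was 0% (0 of 20, 0 to 16.1%, beside 12.2%), while the clone 3 share was 30% (9 of 30, 16.7 to 47.9%, beside 12.8%). Genes with a start peak numbered 6 in WT (beside 27.0% of autosomal genes of the same types) and 4 in clone 3 (beside 23.0%) at or above the median score, and 7 (beside 33%) and 5 (beside 26.6%) at the stricter IDR. These alternatives keep fewer peaks. The median rank shift was 3.24 without replicate 1 and -2.77 without replicate 2, so its direction rests on the replicate and no direction is drawn from it. RefSeq starts, an alternative added after seeing the data, gave 11 genes in WT and 10 in clone 3. No paired analysis was possible because each line has 1 list and no test was made. The unknown read depth limits every missing peak.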

Other observations

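Imprinted genes outside the set were described from a list of 24, of which 23 were found. A start peak was present at 10 in each list, 8 of them in both, beside 41.6% of autosomal genes of the same types as the set in WT and 37.8% in clone 3. Nespas and Slc38a4 had one in WT only, and Pon2 and Zdbf2 in clone 3 only, and 11 genes had none. The strongest in WT were Trappc9, at percentiles 95.1 and 97.5, and Tssc4, at 95.7 and 96.4.

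All 10 listed factors that set or keep imprints were found, and 7 had a start peak in WT and 7 in clone 3, of which 6 had one in both, beside 45.1% and 41.0% of autosomal coding genes. Trim28, the corepressor recruited by Zfp57, had one at 64.4 and 71.8 in WT. Setdb1, a histone methyltransferase, had one in WT only and Dppa3, a maternal protector of methylation, in clone 3 only, while Zfp445 and Dnmt3l had none in either list.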
